A study of Mus musculus with 16 samples.

Results

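Potassium channel genes were followed through bulk RNA-seq libraries of the mouse dorsal hippocampus. Members were the genes whose symbol starts with Kcn and a letter from a to v. The choroid plexus genes Kcnj13 and Kcne2 and 3 antisense names were left out of the 98 matching symbols, which left 93 members among 24972 genes. One of them, Kcnq1ot1, is a noncoding transcript of the Kcnq1 locus and not a channel, so 92 members code for channel subunits or their regulators. The libraries came from adult ArcCreERT2::eYFPflx mice on a C57BL/6 background, a line in which a tamoxifen-inducible Cre under Arc control can switch on eYFP. All animals carried these alleles, trained and untrained alike. Trained mice learned active place avoidance, a task in which a rotating arena holds a shock zone to be avoided, and untrained mice were placed in the arena without shock. Tissue was taken after a retention test on the day after the last training, and CA1, CA3 and the dentate gyrus (DG) were dissected from several sections and pooled per animal. CA1 had 3 trained and 3 untrained libraries, CA3 and DG had 3 trained and 2 untrained libraries each, 16 in all.

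Potassium channels carry the currents that set the resting potential and end the action potential of neurons. Voltage-gated (Kv) channels repolarise the membrane, inward rectifiers and two-pore channels hold it near rest, and calcium-activated BK and SK channels shape the afterpotentials that follow spikes. Auxiliary subunits, among them the Kv beta subunits, the calcium-binding KChIP proteins and the BK beta subunits, change how these channels open, close and reach the membrane. In the hippocampus Kv4 and Kv7 currents are known for limiting dendritic excitation and repetitive firing, and inward rectifiers opened by G proteins for slow inhibition.

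Each value is an estimated count. Values are not whole and summed to between 7607326 and 7984931 per library, so they are called normalized here, although the sources used here do not describe that step. A member was tested where its value was at least 10 in at least as many libraries as the smallest group compared held. In 7 libraries between 7567 and 9759 genes were listed at 0, among them all 3 trained CA1 libraries, against 3124 to 5944 genes in the other 9. Members listed at 0 numbered 5 to 15 in the former libraries and 2 to 6 in the latter. Xist, transcribed from the inactive X chromosome, lay between 7601 and 19592 in the trained libraries and at most at 52.4 in 6 untrained ones, while CA3 untrained 1 had 10587, unlike the CA1 and DG libraries that carry the same animal label. The Y-linked Ddx3y was 201.4 in CA3 untrained 1, 255.2 in DG trained 3, 70.9 in CA1 trained 1, 100.6 in CA1 trained 3 and 92.9 in CA3 trained 3, so these 5 libraries held Xist and Y-linked transcripts together. It was at most 12.9 in the other 5 trained libraries and 448 to 553 in the other 6 untrained ones. The study used mice of both sexes in each training group, so these values do not match the stated sexes and leave the animal labels of some libraries in doubt. Sex-linked transcripts and training nearly coincide and cannot be told apart in these libraries.

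The subregion labels were weakly separated by marker genes. Prox1, the transcription factor that defines dentate granule cells, was 4118 and 4183 in untrained DG and 3292 to 3367 in trained DG, between 3052 and 3861 in CA1 and between 2690 and 4786 in CA3. The summed value of 6 dentate granule markers was 10581 and 10950 in untrained DG, 8632 to 9241 in trained DG, 7946 to 9867 in CA1 and 7369 to 12306 in CA3. Untrained DG lay above every CA1 library and inside the range of CA3, while trained DG lay inside the ranges of both. The sum of 6 CA1 pyramidal markers lay between 3308 and 5277 in untrained CA1, between 1644 and 2017 in trained CA1, and between 1026 and 2154 in all CA3 and DG libraries. The 6 CA3 pyramidal markers summed to 3329 to 3792 in untrained CA1 and 4202 to 4523 in trained CA1, to 3075 and 4220 in untrained CA3 and 4321 to 5608 in trained CA3, and to 4043 and 4486 in untrained DG against 4556 to 5036 in trained DG. CA1 markers were thus lower in trained than in untrained CA1, and CA3 markers were higher and granule markers lower in trained than in untrained DG, without overlap. CA3 marker sums of trained libraries were also above those of untrained ones within CA1 and within CA3. In bulk tissue fewer cells of a type and less RNA per cell cannot be told apart.

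**Figure D1:**
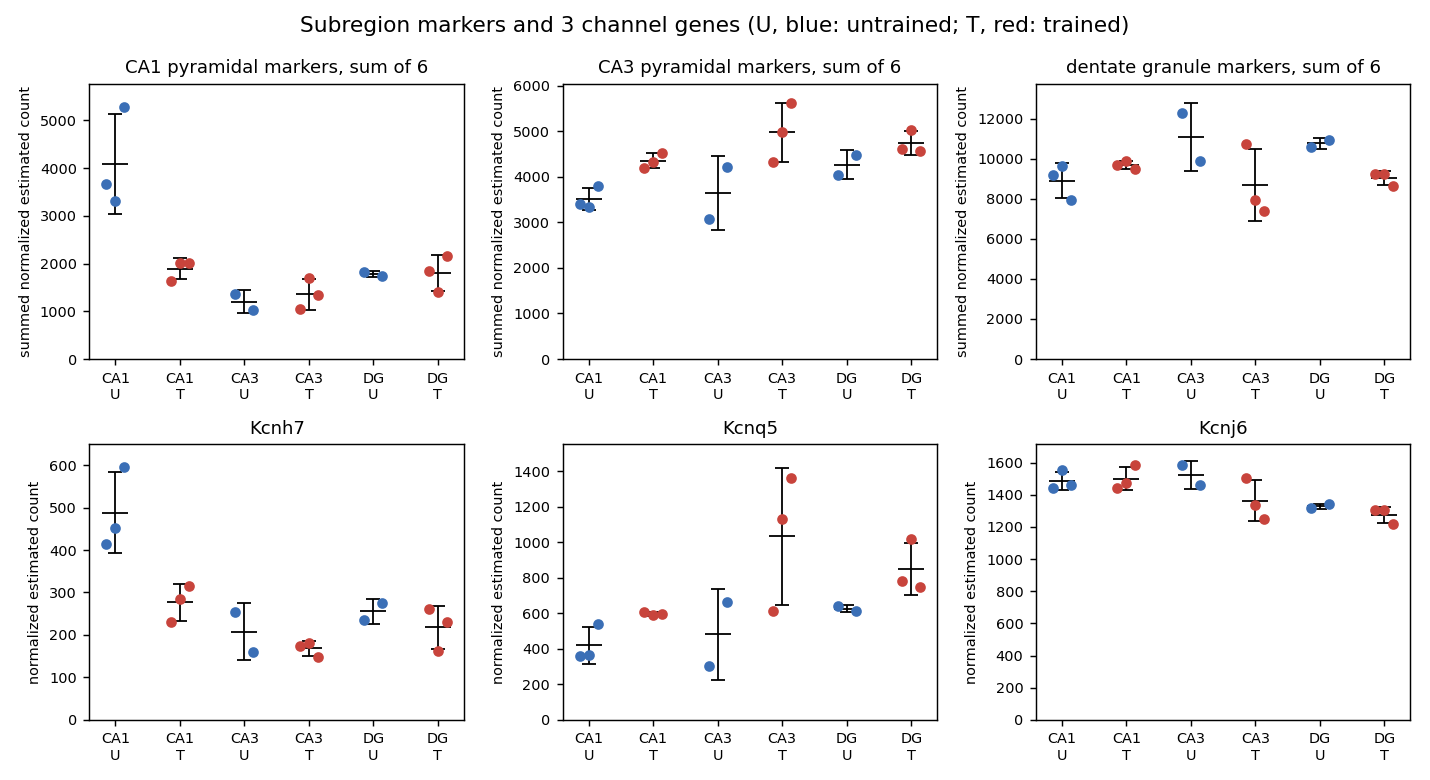
Summed values of 6 CA1 pyramidal, 6 CA3 pyramidal and 6 dentate granule markers (top) and values of Kcnh7, Kcnq5 and Kcnj6 (bottom) in the 16 libraries. Each point is a library, black bars are the mean and SD of a group (n = 3, or n = 2 for untrained CA3 and DG), and axes start at 0. Kcnh7 and the CA1 markers were both highest in the 3 untrained CA1 libraries, whereas the granule markers overlapped between subregions.

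Most of the family was expressed in all libraries. Of the 93 members, 80 passed the filter in the 16 libraries and 64 reached a value of 10 or more in every library. Kcnk16, a two-pore channel, was listed at 0 throughout. The other 12 members that did not pass were Kcnk7 and Kcnk15 of the same family, Kcna7 and Kcna10 of Kv1, Kcnq1 of Kv7, Kcnh6 of the ERG group, the silent subunit Kcnv2, the inward rectifier Kcnj1, the BK subunit Kcnmb3, the intermediate-conductance Kcnn4, and the KCNE subunits Kcne1 and Kcne3. Their highest values lay between 0.77 in Kcnk15 and 11.67 in Kcnv2.

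Levels are compared between genes as the value per kilobase of the longest annotated transcript, given as the mean ± SD over the 16 libraries. The 10 highest coding members made up 54.3% of the summed level of the family, between 52.9% and 56.3% in a single library. The summed level was also even across libraries, from 9700 to 10604. Kcnab2, a cytoplasmic Kv beta subunit that binds Kv1 channels, was highest at 1451 ± 148 per kb. Kcna1, the Kv1 channel of axons and terminals, stood at 862 ± 56.8, and the SDs of these 2 do not overlap.

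Lower in the order Kcnip2, a KChIP partner of Kv4, stood at 415 ± 21.5, and the G protein-gated inward rectifiers Kcnj3 and Kcnj6 at 399 ± 30.7 and 389 ± 32.4. Kcnk1 and Kcnd2, the highest two-pore and Kv4 genes, stood at 362 ± 39.4 and 349 ± 27.9. Neighbours in the order of these 5 genes are not separated beyond their SDs. In other subfamilies the highest member was Kcnma1, the pore subunit of BK, at 168 per kb, Kcnh3 of the ELK group at 144, the sodium-activated Kcnt2 of Slo2, the small-conductance Kcnn2, the silent Kcnv1 and, lowest, Kcne1l and the regulator Kcnrg.

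**Figure D2:**
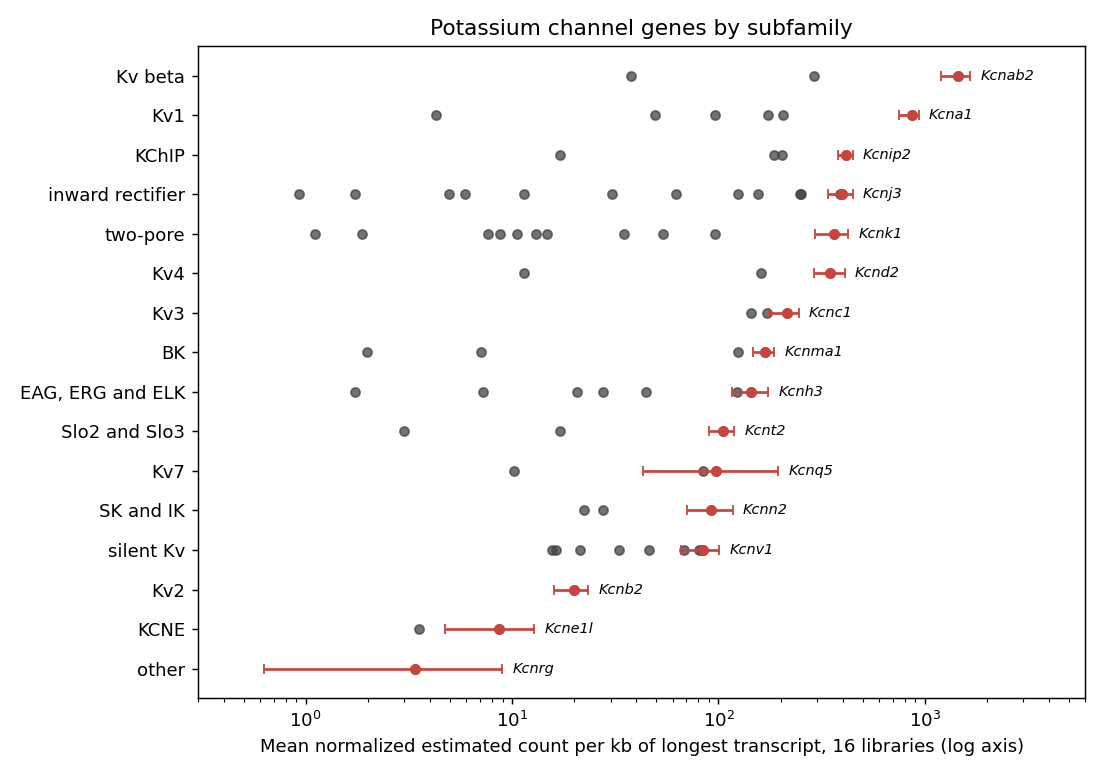
Mean value per kilobase of the longest transcript (log axis) of the coding members shown here, by subfamily. Grey points are members, and the red point with its name is the highest of those shown in each subfamily, with bars from the lowest to the highest of the 16 libraries. Kcnab2 at 1451 and Kcna1 at 862 lie to the right of the other members shown.

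By subfamily, Kv beta genes held 17.5% ± 1.5 (SD, n = 16) of the summed level, inward rectifiers 16.6% ± 1.09, Kv1 13.7% ± 0.68, Kv3 8.65% ± 0.59, Kv7 8.28% ± 0.83 and KChIP 8.06% ± 0.29. Two-pore channels held 5.96%, Kv4 5.13%, silent Kv subunits 4.42%, the EAG, ERG and ELK group 3.64%, BK 2.97%, Kv2 2.28%, SK and IK 1.39%, Slo2 and Slo3 1.23% and KCNE 0.14%. The BK share averaged 2.54% in untrained CA1 and between 2.91% and 3.31% in the other groups, a description with no test. The coefficient of variation over libraries had a median of 15.9% among members that passed the filter and was under 10% in 18 of them. Kcnj10, the inward rectifier of astrocytes, was among the steady members at 250 ± 13.6 per kb. Kcnq5, another Kv7 subunit, varied more, at 97.7 ± 40.5 per kb, a coefficient of variation of 41.4%. Its values ran from 301.5 in CA3 untrained 1 to 1361 in CA3 trained 3.

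The subregion comparisons asked which channel genes differed between CA1, CA3 and DG. All 16 libraries entered one limma fit with training as a term, and a gene was called where its Benjamini-Hochberg adjusted p was under 0.05. CA1 differed from CA3 in 4 of 80 members (5%, against 0.988% of all 14673 genes tested), CA1 from DG in 5 (6.25%, against 4.05%), and CA3 from DG in 0 (against 0.00682%, a single gene). At an unadjusted p under 0.05, 13 members (16.2%) and 6.86% of all genes differed between CA3 and DG. The median log2 difference of members was 0.01 between CA1 and CA3 and 0.01 between CA1 and DG, beside -0.01 and 0.00 over all genes.

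Kcnh7 encodes an ERG-type channel and lies on chromosome 2 of GRCm38 from 62693414 to 63184287 on the minus strand. Its values were 414.7, 452.1 and 595.3 in untrained CA1 and 230.3, 284.8 and 314.6 in trained CA1. In CA3 they were 254.9 and 160.5 in untrained and 174.9, 181.8 and 147.4 in trained libraries, and in DG 235.1 and 275.2 in untrained and 261.3, 162.9 and 229.3 in trained libraries. The untrained CA1 libraries were above all others, and the trained CA1 libraries overlapped with DG. Kcnh7 was 0.97 higher in CA1 than in CA3 on the log2 scale (SE 0.15, limma adjusted p = 0.00782) and 0.64 higher than in DG (SE 0.15, adjusted p = 0.0374).

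Kcnab1, a Kv beta subunit that speeds the inactivation of Kv1 channels, lies on chromosome 3 from 65109384 to 65378223. It had values of 1457, 1508 and 1868 in untrained CA1, 1117, 1256 and 1308 in trained CA1, 1307 and 1134 in untrained CA3 and 1060, 1050 and 1027 in trained CA3. In DG it lay between 1157 and 1288. Untrained CA1 was again above all other libraries, and the log2 difference of CA1 from CA3 was 0.31 (SE 0.06, adjusted p = 0.0100). Kcnq3, a Kv7 subunit of the M-current, was 0.22 higher in CA1 than in CA3 (SE 0.05, adjusted p = 0.0449), with 984.9 to 1248 in CA1 and 820.8 to 964.7 in CA3. Kcnd3, a Kv4 channel, was the member called lower in CA1, by -0.24 (SE 0.05, adjusted p = 0.0267), with 893.2 to 1254 in CA1 and 1193 to 1358 in CA3.

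Against DG, CA1 had less Kcnmb4, the neuronal beta subunit of BK, at chromosome 10 from 116417861 to 116473878. Its values were 127.1, 131.0 and 141.5 in untrained CA1 and 226.2, 230.9 and 187.2 in trained CA1, beside 189.0 and 259.0 in untrained DG and 228.0, 243.3 and 201.1 in trained DG. The untrained CA1 libraries were below all DG libraries and the trained ones overlapped with them. The log2 difference was -0.39 (SE 0.09, adjusted p = 0.0147). Kcnj6, a G protein-gated inward rectifier, was 0.20 higher in CA1 (SE 0.05, adjusted p = 0.0273), with 1444 to 1585 in CA1 and 1218 to 1340 in DG, so the groups did not overlap. The two-pore acid-sensitive Kcnk9 was 0.30 higher (SE 0.08, adjusted p = 0.0292), at 637.7 to 833.1 in CA1 and 535.0 to 702.0 in DG. The noncoding Kcnq1ot1 was 0.24 higher (SE 0.05, adjusted p = 0.0154), at 4493 to 5182 in CA1 and 3422 to 4764 in DG.

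These calls moved with the subregion markers. In the same fit 4 of 6 CA1 pyramidal markers were higher in CA1 than in CA3 (median log2 difference 1.14) and 0 than in DG (0.615). Of the CA3 pyramidal markers 2 of 6 were lower in CA1 than in CA3 (-0.45) and 4 of 6 lower in CA1 than in DG (-0.46), while 0 of 6 differed between CA3 and DG (-0.03), so this list did not set CA3 apart from DG. In addition 2 of 5 endothelial and mural markers, Flt1 and Cldn5, were higher in CA1 than in DG (0.60 and 0.68), and no dentate granule marker was called in any of these comparisons. With the CA1 marker score as a covariate, a setting chosen after seeing the data, 0 members and 2 of all 14673 genes differed between CA1 and CA3, against 145 genes without it, and 3 members, 2 of them called before, and 137 genes between CA1 and DG, against 594. With the CA3 marker score 0 members differed in both, and 10 and 75 genes. Calls were thus lost over all genes as well. With the number of genes at 0 as a covariate Kcnh7 was not called between CA1 and DG (0.0524). Kcnq3 was near the threshold and was not called between CA1 and CA3 with a pseudocount of 0.5 (0.0501), no filter (0.0759), no robust estimation (0.0560), or the number of genes at 0 (0.0765) or the sex-linked score (0.0701) as a covariate. With that score Kcnd3 was not called either (0.0988). Without CA3 untrained 1, Kcnh7 and Kcnab1 stayed called between CA1 and CA3, while Kcnd3 (adjusted p = 0.127) and Kcnq3 (0.0682) did not. With the animal label as a block, Kcnq3 was not called (0.0918). Between CA1 and CA3 the count ranged from 0 without trained replicate 3 to 5 with each animal left out. Kcnh7 lost its call without trained replicate 3 (0.121), Kcnab1 without trained replicates 2 and 3 and untrained replicate 2 (0.0907 to 0.104), and Kcnd3 and Kcnq3 without each animal but untrained replicate 1 (0.0505 to 0.269). Between CA1 and DG the count ranged from 1 without trained replicate 2 to 6, the loss without that animal covering Kcnh7 (0.127), Kcnj6 (0.108), Kcnk9 (0.0995) and Kcnmb4 (0.0862). The count was 2 without trained replicate 3, which cost Kcnh7 (0.141), Kcnj6 (0.118) and Kcnq1ot1 (0.0724) their calls, and 2 without untrained replicate 3, which cost Kcnh7, Kcnj6, Kcnk9 and Kcnmb4 theirs (0.0674 to 0.166). Kcnj6 was also lost without untrained replicates 1 and 2 (0.0805 and 0.0721) and Kcnk9 without untrained replicate 2 (0.0624).

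The training comparison over all subregions had a term for subregion and took each of the 16 libraries as independent, although each animal label covers 2 or 3. An animal left out below means all libraries of one such label. It called 18 of 80 members (22.5%, against 10.3% of all 14673 genes tested), 10 higher in trained animals (against 6.28%) and 8 lower (against 4.06%). Members did not shift as a whole. Their median log2 fold change was -0.01, as over all genes, and the median of its size was 0.13 beside 0.11. None of the 6 Kv1 genes or 9 silent subunits tested was called, although the silent subunit Kcnf1 was close (0.28, SE 0.09, adjusted p = 0.0553). Kcnf1 was called with a value of at least 10 required in every library, with the replicate block, and without trained replicate 3 or untrained replicate 3, and Kcng3 was called without untrained replicate 1.

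Among the voltage-gated channels Kcnc2, a Kv3 gene of fast-spiking neurons at chromosome 10 from 112271121 to 112467024, had the smallest adjusted p. Its values in CA1 were 774.4, 621.5 and 737.9 in untrained and 919.0, 877.3 and 916.3 in trained libraries. In CA3 they were 651.2 and 812.1 against 870.6, 1147 and 1106, and in DG 642.3 and 860.9 against 892.9, 1069 and 932.2. In each subregion the lowest trained library exceeded the highest untrained one. Kcnc2 rose by 0.405 on the log2 scale (SE 0.07, limma adjusted p = 0.00181). Kcnc1, the related Kv3 gene, rose by 0.145 (SE 0.045, adjusted p = 0.0411).

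Kcnb2, a Kv2 gene of the delayed rectifier, went the other way. It had values of 340.4, 346.4 and 305.1 in untrained CA1 and 258.4, 275.0 and 304.1 in trained CA1. In CA3 it had 311.4 and 312.9 against 248.6, 275.4 and 236.6, and in DG 328.9 and 334.8 against 296.1, 300.7 and 265.2. Trained libraries lay below untrained ones in each subregion, by as little as 304.1 against 305.1 in CA1. The log2 fold change was -0.25 (SE 0.06, adjusted p = 0.00588).

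Kcnk2, the mechanically gated two-pore channel TREK-1, lies on chromosome 1 from 189207930 to 189402273. It had 381.0, 410.5 and 426.1 in untrained CA1 and 303.8, 345.2 and 341.6 in trained CA1, 309.1 and 348.1 in untrained CA3 and 290.0, 277.3 and 306.5 in trained CA3, and 405.4 and 391.0 in untrained DG and 318.8, 294.5 and 351.3 in trained DG. The trained libraries were the lower ones in all 3 subregions, without overlap. The log2 fold change was -0.26 (SE 0.055, adjusted p = 0.00379). Kcnk4, the related two-pore channel TRAAK, had values of 14.8, 20.7 and 15.8 in untrained CA1 and 35.7, 30.4 and 28.1 in trained CA1, in CA3 10.6 and 29.5 against 38.1, 40.8 and 58.3, and in DG 11.9 and 51.7 against 46.2, 59.3 and 35.9. It rose by 0.94 (SE 0.23, adjusted p = 0.0118) at these low values, with overlap in DG.

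Of the auxiliary subunits, Kcnmb4 rose by 0.44 (SE 0.09, adjusted p = 0.00394), Kcnab2 rose by 0.17 (SE 0.05, adjusted p = 0.0372), Kcnab1 fell by 0.23 (SE 0.06, adjusted p = 0.0130) and the KChIP gene Kcnip4 fell by 0.22 (SE 0.05, adjusted p = 0.00791). Kcnip4 ranged from 436.4 to 582.8 in untrained and from 370.7 to 461.2 in trained libraries. Among the inward rectifiers Kcnj16, which pairs with Kcnj10 in glia, rose by 0.39 (SE 0.10, adjusted p = 0.0106), and Kcnj2 and the G protein-gated Kcnj9 fell by 0.31 (SE 0.09, adjusted p = 0.0408) and by 0.245 (SE 0.08, adjusted p = 0.0468). The Kv4 gene Kcnd3 rose by 0.15 (adjusted p = 0.0455), the ELK gene Kcnh3 by 0.24 (adjusted p = 0.0372) and the small-conductance Kcnn1 by 0.32 (adjusted p = 0.0383), while Kcnh7 fell by 0.47 (SE 0.14, adjusted p = 0.0422). Members known from the hippocampus that were called in no comparison of training or subregion were Kcna1, Kcna2, Kcna4, Kcnd2, Kcnip3, Kcnh1, Kcnj3, Kcnj10, Kcnk1, Kcnma1, Kcnn2, Kcnn3, Kcnt1 and Kcnq5. Apart from Kcnq5, their log2 fold changes over all subregions lay between -0.12 in Kcnj3 and 0.08 in Kcna2, with adjusted p from 0.103 to 0.988. Kcnq5 had a log2 fold change of 0.68 with an SE of 0.21 and did not pass (adjusted p = 0.0570), but was called without robust estimation. Kcnj3 and Kcnk1 were called over all subregions with the CA1 marker score as a covariate, and Kcnj3 also with the number of genes at 0. Kcna2 was called in CA1 with no filter. For the difference in training effect between CA1 and DG, Kcna1 and Kcnh1 were called with no filter, and Kcnh1 with the animal label as a block.

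**Figure D3:**
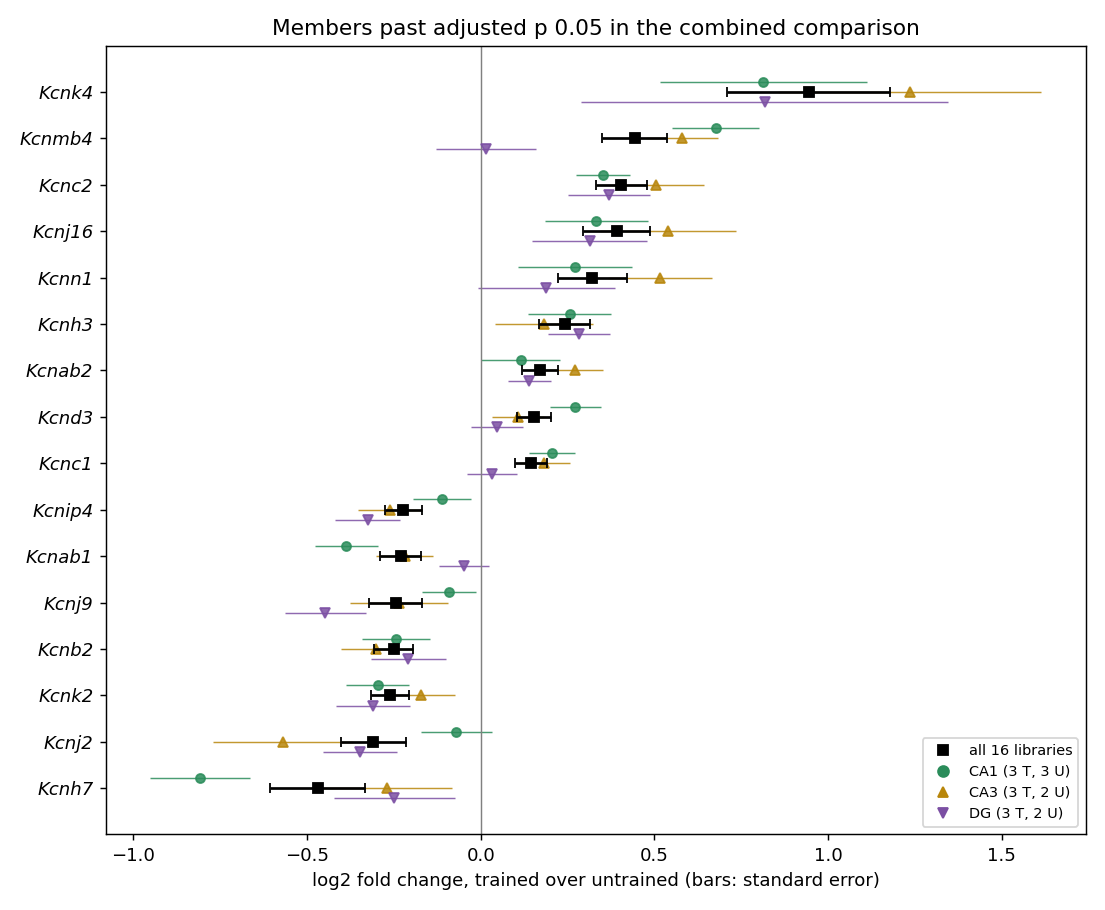
Log2 fold change of trained over untrained libraries for 16 members past an adjusted p of 0.05 over all libraries, with the fold changes within CA1, CA3 and DG beside it. Bars are standard errors. Kcnmb4 lies near 0 in DG (0.01) and away from it in CA1 (0.68) and CA3 (0.58), and Kcnc2, Kcnk2 and Kcnb2 have similar values in all 3.

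Other measures moved with training in the same libraries. With a sex-linked score as a covariate, which nearly coincides with training, 0 members and 0 of all 14673 genes were called by limma, against 1517 genes without it. With the CA3 pyramidal marker score 1 member, Kcnh3, and 40 genes were called. Calls were thus lost over all genes as well as over the family. Across all libraries 4 of 6 CA3 pyramidal markers were higher in trained animals (median 0.41) and 1 of 6 CA1 pyramidal markers was lower (-0.42). Of the interneuron markers 1 of 6 was higher (median 0.15) and 1 of 5 astrocyte markers (-0.02) and 1 of 6 dentate granule markers (-0.07) were lower. With the CA1 marker score as a covariate 14 members (4 higher and 10 lower) and 1316 genes were called, 10 of the members being among the 18. Kcnab1 (adjusted p = 0.229), Kcnh7 (0.286), Kcnd3 (0.434), Kcnc1 (0.337), Kcnh3 (0.100), Kcnn1 (0.0850), Kcnmb4 (0.0614) and Kcnk4 (0.0595) were not. With the number of genes at 0 as a covariate 17 members (7 higher and 10 lower) and 1879 genes were called, 14 of the members among the 18, and Kcnc1, Kcnd3, Kcnh3 and Kcnh7 were not (0.0571 to 0.0743). Without CA3 untrained 1, 10 members and 974 of 15293 genes were called, and of the members named above Kcnab2, Kcnc1, Kcnh7, Kcnj2, Kcnj9 and Kcnn1 were not. With no filter on low values 12 members and 1189 of 23503 genes were called, and Kcnc1, Kcnd3, Kcnh3, Kcnj9 and Kcnn1 were not (0.0524 to 0.0724).

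Many of these calls were lost with a single animal label left out, and fewer calls over all genes were left in the settings counted here. Kcnc2 and Kcnk2 kept an adjusted p under 0.05 with each of the 6 animals left out in turn. Without untrained replicate 1, 4 members and 438 of all 15118 genes were called, against 1517 of 14673 genes with all animals. Of the members named above, Kcnab1, Kcnab2, Kcnb2, Kcnc1, Kcnd3, Kcnh3, Kcnh7, Kcnip4, Kcnj2, Kcnj9, Kcnk4, Kcnmb4 and Kcnn1 were not (adjusted p from 0.0504 to 0.417). Without trained replicate 2, 5 members and 554 of all 14585 genes were called. Kcnab1, Kcnab2, Kcnc1, Kcnd3, Kcnh3, Kcnh7, Kcnj16, Kcnj2, Kcnj9, Kcnk4 and Kcnn1 were not (0.0696 to 0.236). Without untrained replicate 2, 10 members and 886 of all 15163 genes were called. Kcnab2, Kcnc1, Kcnd3, Kcnh3, Kcnj2, Kcnj9 and Kcnn1 were not (0.0589 to 0.195). Leaving out trained replicate 1 cost Kcnc1, Kcnd3, Kcnh3, Kcnk4 and Kcnn1 their calls (0.0519 to 0.180), trained replicate 3 Kcnab2, Kcnd3, Kcnh7 and Kcnj9 (0.0752 to 0.136), and untrained replicate 3 Kcnc1 and Kcnh7 (0.0805 to 0.0861).

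Within CA1, trained and untrained libraries differed in 8 of 73 members tested (11%, against 5.23% of 13588 genes), 6 higher (against 3.53%) and 2 lower (against 1.70%). Kcnmb4 rose by 0.68 (SE 0.125, adjusted p = 0.00262), from 133 ± 7.43 (SD, n = 3) to 215 ± 24 (SD, n = 3), and each trained library was above each untrained one. Kcnh7 fell by 0.81 (SE 0.14, adjusted p = 0.00751), and Kcnab1 fell by 0.39 (SE 0.09, adjusted p = 0.0303).

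Kcnc2 rose in CA1 by 0.35 (SE 0.08, adjusted p = 0.0112) and Kcnd3 by 0.27 (SE 0.07, adjusted p = 0.0384). Silent subunits, which modify Kv2 channels and form none by themselves, were also among the calls. Kcng3 had 100.8, 79.8 and 65.9 in untrained and 135.3, 124.4 and 126.9 in trained CA1 and rose by 0.66 (SE 0.17, adjusted p = 0.0236). Kcnf1 had 382.6, 349.4 and 284.5 against 499.9, 430.5 and 423.3 and rose by 0.42 (SE 0.11, adjusted p = 0.0267). In the same libraries 3 of 6 CA1 pyramidal markers fell (median -1.10) and 3 of 6 CA3 pyramidal markers rose (0.46). The astrocyte marker Aqp4 fell by 0.35 (1 of 5), and of 6 dentate granule markers Pdzd2 rose by 0.62 and Lct fell by 0.20. Choroid plexus markers summed to between 675.1 and 944.1 in untrained CA1. They summed to 2122 in trained replicate 1 and to 75.2 and 68.3 in trained replicates 2 and 3, with 0 of 3 tested called (median -1.78). The part of these markers in the differences of members was not tested within CA1. Xist lay between 17310 and 19318 in the trained and between 26.1 and 52.4 in the untrained CA1 libraries, so sex-linked transcripts and training cannot be told apart there.

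**Figure D4:**
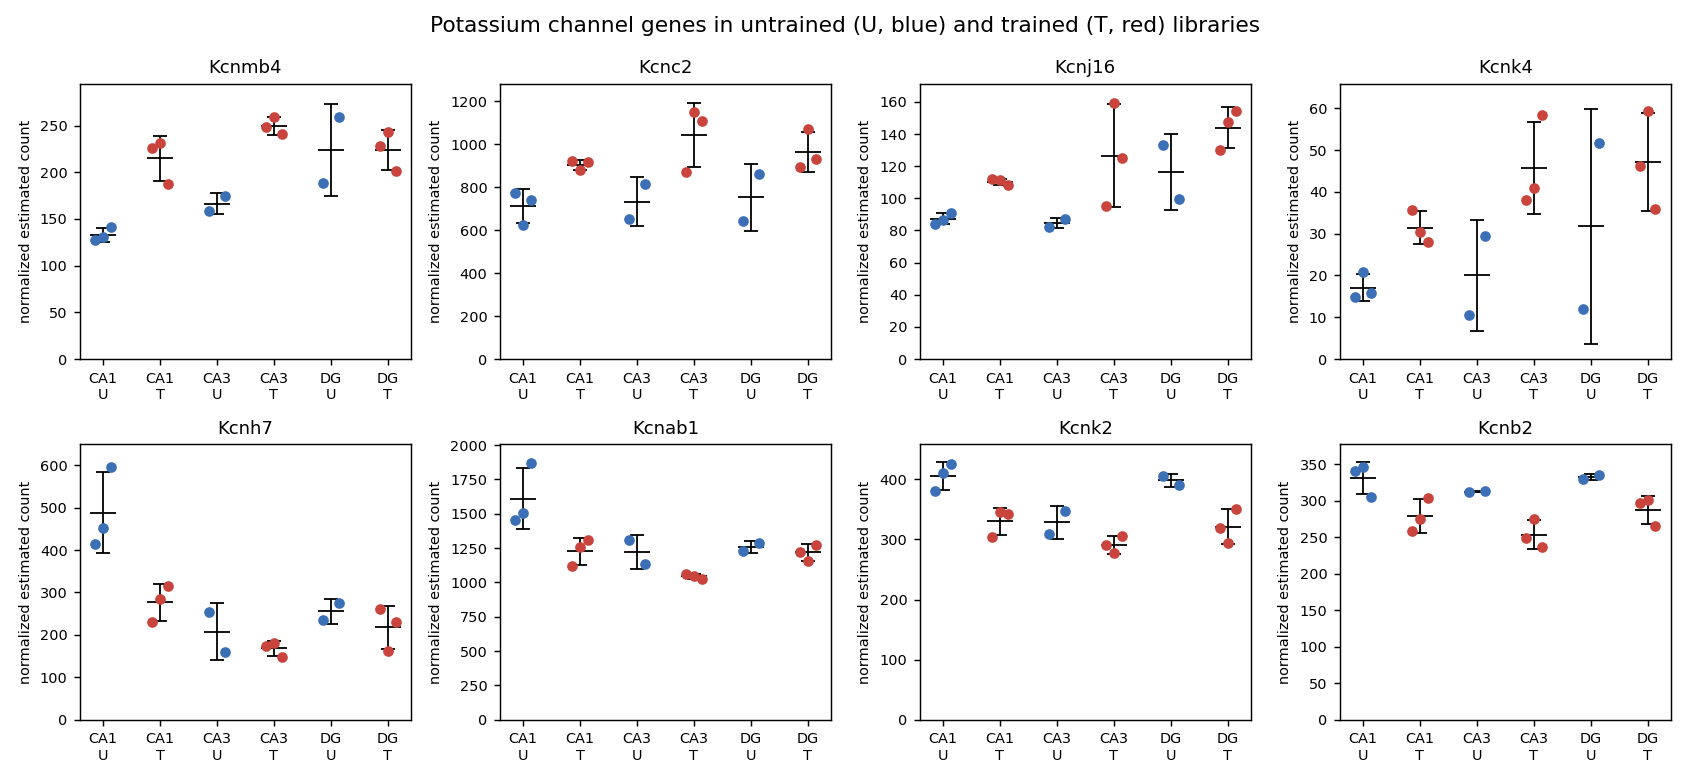
Values of 8 members in untrained (U) and trained (T) libraries of each subregion. Each point is a library, black bars are the group mean and SD (n = 3, or n = 2 for untrained CA3 and DG), and axes start at 0. Trained libraries lie above untrained ones for Kcnc2 and below them for Kcnk2 in all 3 subregions, and Kcnmb4 is higher in trained CA1 and CA3 and overlaps in DG.

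With the spread taken from all 16 libraries Kcnc2 (adjusted p = 0.130) and Kcnf1 (0.0899) were not called in CA1, and Kcnd3 was not called with the replicate block (0.0906) or without robust estimation (0.0642). Kcnq5, not called in CA1, was called there with the replicate block, without robust estimation, with no filter, with a value of at least 10 required in every library and without untrained replicate 3. With no filter it was called in DG as well. Kcnmb4 and Kcnh7 kept their calls in CA1 without each of the 6 animals in turn. The number of members called ranged from 4, without trained replicate 2 or untrained replicate 2, to 10 without untrained replicate 3. Over all genes 392 of 13975, 486 of 13746 and 905 of 13910 were called in these settings, in that order. Kcnc2 was lost without untrained replicate 2 (adjusted p = 0.0676). Kcnab1 was lost without trained replicates 1, 2 and 3 (0.0502 to 0.0781). Kcnd3 was lost without trained replicates 2 and 3 and untrained replicates 2 and 3 (0.0953 to 0.131), and Kcnf1 and Kcng3 without trained replicates 1 and 2 and untrained replicates 2 and 3 (0.0507 to 0.124).

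In CA3, trained and untrained libraries differed in 2 of 76 members tested (2.63%, against 0.852% of 13848 genes). Kcnmb4 had 158.5 and 174.3 in untrained and 248.3, 259.2 and 240.7 in trained libraries and rose by 0.58 (SE 0.10, adjusted p = 0.0343). The groups did not overlap. Without robust estimation 0 members and 56 genes were called, and Kcnmb4 was not (adjusted p = 0.0508). Without CA3 untrained 1, whose Xist value goes against the other libraries of its animal label, 0 members and 23 of all 14278 genes were called and the adjusted p of Kcnmb4 was 0.251. It was 0.257 without trained replicate 2 and 0.0728 without untrained replicate 2. With either untrained library left out, the remaining one was assumed to vary like the trained libraries. In the same comparison the choroid plexus markers Ttr and Clic6 were lower in trained CA3 (log2 fold change -3.29 and -2.55, 2 of 4 tested), the interneuron marker Sst was higher (0.82, 1 of 6) and the 6 CA3 pyramidal markers had a median of 0.65. Their part in the CA3 calls was not tested. Without trained replicate 1, 6 members and 680 of all 13771 genes were called.

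In DG no member of 76 tested passed (0%, against 3.39% of 13935 genes), while 17 members (22.4%) and 19.5% of all genes had an unadjusted p under 0.05 in the limma fit. Kcnj9 came nearest, with 795.2 and 586.7 in untrained and 520.0, 462.3 and 521.5 in trained libraries, a log2 fold change of -0.45 (SE 0.12, adjusted p = 0.0512). It was called with no filter, with a value of at least 10 required in every library, with the replicate block and without untrained replicate 3. Without untrained replicate 3, when 1 untrained library was left and assumed to vary like the trained ones, 10 members and 1758 of all 14575 genes were called, and without untrained replicate 1 the count was 2 members. In trained DG the endothelial and mural markers Flt1 and Rgs5 were lower (-0.94 and -0.505, 2 of 5, adjusted p = 0.00142 and 0.0464), as was the granule marker Prox1 (-0.31, 1 of 6, adjusted p = 0.00965), and the CA3 marker Dkk3 was higher (0.32, 1 of 6, adjusted p = 0.0270). Their part in the DG values of members and partners was not tested.

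Whether the difference between trained and untrained libraries varied between 2 subregions was tested as an interaction over all 16 libraries. Between CA1 and DG 3 of 80 members were called (3.75%, against 2.75% of 14673 genes). One of them, Kcnj15, is given below as a description only, and the 2 that remain are a share no higher than that over all genes. For Kcnmb4 the log2 fold change was 0.68 in CA1 and 0.01 in DG, a difference of 0.66 (SE 0.18, adjusted p = 0.0446). Kcnj15, an inward rectifier at low values, was listed at 0 in the 3 trained CA1 libraries and at 17.9, 12 and 6.71 in the untrained ones, against 2.64 and 3.75 in untrained and 11.9, 5.13 and 6.88 in trained DG (interaction adjusted p = 0.0308). It reached 10 in 3 libraries alone, 2 of untrained CA1 and 1 of trained DG, and so passed the filter only through groups that the interaction contrasts. Its call is a description and supports no difference in effect. The libraries with many genes at 0 include all 3 trained CA1 and both untrained DG libraries and none of the untrained CA1 and trained DG libraries, the pattern that this interaction contrasts, and its part in the Kcnj15 result was not tested. No member differed between CA1 and CA3 (against 0.0273% of all genes) or between CA3 and DG (against 0.164%) in limma at an adjusted p under 0.05, and 10 (12.5%, against 6.71%) and 8 members (10%, against 11.7%) had an unadjusted p under 0.05. Without trained replicate 2 none of the 3 calls held (0.140 for Kcnmb4). Kcnmb4 was also lost without trained replicates 1 and 3 and untrained replicates 2 and 3 (0.0773 to 0.173), with a value of at least 10 required in every library (0.0602) and without robust estimation (0.0554).

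Genes outside the family that anchor or regulate these channels were read from a list of 27, of which 24 were tested. Over all subregions 4 rose and 2 fell, beside 10.3% of all genes called. In CA1 3 of 24 were called (against 5.23%), in CA3 1 (against 0.852%) and in DG 3 (against 3.39%). The alternative settings were not applied to these genes. Lingo1, a BK partner, rose by 0.46 (SE 0.07, limma adjusted p = 5.82e-04). Vapb, a partner of Kv2 at contacts with the endoplasmic reticulum, rose by 0.175 (adjusted p = 0.00795). The scaffold Dlg2 rose by 0.115 (adjusted p = 0.0277) and the spectrin Sptbn4 by 0.19 (adjusted p = 0.0468). The Kv4 auxiliary subunit Dpp6 fell by 0.14 (adjusted p = 0.0182) and Abcc8, the sulfonylurea receptor of KATP channels, fell by 0.19 (adjusted p = 0.0384). In CA1 Lingo1 (adjusted p = 0.0395) and Sptbn4 (0.0461) rose and Cntnap2, which clusters Kv1 at axons, fell by 0.27 (adjusted p = 0.0497). In CA3 Lingo1 rose by 0.59 (SE 0.08, adjusted p = 0.0101). In DG Ank3, the ankyrin of the axon initial segment, fell by 0.275 (adjusted p = 0.0170), Lgi1, an extracellular partner of Kv1, fell by 0.25 (adjusted p = 0.0338) and Dpp6 fell by 0.24 (adjusted p = 0.0482), beside the lower Flt1, Rgs5 and Prox1 given above.

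Sequence upstream of the start site is shown for the 2 members whose combined call held without each animal, Kcnc2 and Kcnk2, and for Kcnh7, which was highest in untrained CA1. Each is the 250 bases before a RefSeq start that is also the annotated gene start, 5′ to 3′ on the strand of the gene in GRCm38.p6: Kcnc2 at chr10:112270871-112271120 (plus), Kcnk2 at chr1:189402274-189402523 (minus) and Kcnh7 at chr2:63184288-63184537 (minus). Capitals mark GC boxes, GGGCGG on either strand.
Kcnc2: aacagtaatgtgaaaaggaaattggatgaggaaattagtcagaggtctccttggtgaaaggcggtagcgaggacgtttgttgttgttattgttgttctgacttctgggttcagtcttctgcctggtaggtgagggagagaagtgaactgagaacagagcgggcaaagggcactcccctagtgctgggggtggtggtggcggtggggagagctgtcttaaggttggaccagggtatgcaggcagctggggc
Kcnk2: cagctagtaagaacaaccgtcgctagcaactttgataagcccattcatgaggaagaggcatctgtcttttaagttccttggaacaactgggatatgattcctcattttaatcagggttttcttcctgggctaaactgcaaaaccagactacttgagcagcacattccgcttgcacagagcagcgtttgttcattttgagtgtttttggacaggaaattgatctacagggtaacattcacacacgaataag
Kcnh7: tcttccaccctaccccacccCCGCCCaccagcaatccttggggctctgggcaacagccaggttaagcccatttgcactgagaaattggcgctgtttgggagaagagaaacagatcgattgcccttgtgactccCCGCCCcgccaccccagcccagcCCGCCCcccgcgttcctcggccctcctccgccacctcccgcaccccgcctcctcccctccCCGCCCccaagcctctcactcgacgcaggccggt

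Kcnh7 holds 4 GC boxes in its window and Kcnc2 and Kcnk2 none in theirs. Kcnc2 and Kcnk2 have 4 listed starts each and Kcnh7 has 1, and boxes were counted per gene only at the start shown. The GC content is 67.6% for Kcnh7, 52.8% for Kcnc2 and 42.4% for Kcnk2. RefSeq windows of 250 bases before to 50 bases after a start were found for 68 members, 92 windows in all. GGGCGG on either strand was present in 47.8% of these and in 35.7% of all 32851 windows, and the median GC content of the 250 upstream bases was 58.8% in members and 52.4% over all windows. The palindromic cAMP response element TGACGTCA was in 0 of the 92 windows and in 1.79% of all windows, and the Egr1 motif GCGTGGGCG, on either strand, was in 0 and in 0.612%.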

How the data were processed

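The labels name polyA RNA, while their protocol names ribosomal RNA depletion, so the selection of RNA, which bears on noncoding transcripts such as Kcnq1ot1, is unsettled. The authors aligned reads with STAR (GRCm38 per the labels) and estimated gene counts with Salmon. The deposited signal is not whole and sums to nearly the same total in each library, so it is called a normalized estimated count here. The normalization is not given in the sources used here, so depth is unknown and no counting interval is given.

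Groups and replicate numbers came from the sample titles. Values were compared with limma 3.58.1 in R 4.3.3 on log2(value + 2), which understates changes of low genes, using robust moderation with a trend of variance on mean level and Benjamini-Hochberg adjustment over all genes tested. The method was run on simulated data with a log2 change of 1 in 200 genes, or none. Libraries were drawn independently there, so the run does not bear on shared animals or on smaller changes. Lengths and positions came from GENCODE M21, promoters from RefSeq. Reads of Kcnq1ot1 and Kcnq1, which overlap, may not be separable. A training group and replicate number were taken as an animal label across subregions, and the values leave open whether each label is 1 animal. Deviations from group means correlated at -0.144 to 0.139 over 14 pairs of libraries of one label and at -0.184 to 0.105 over 14 pairs that share only a number. Alternatives were the replicate block, rescaling, filters, the pseudocount, no robust estimation, a shared spread, covariates and each animal label left out. The block was the replicate number for training, and the animal label between subregions and for interactions. The members and lists were chosen with earlier results of these data known, and GC boxes and marker scores after seeing the data. Named are called members, the highest of each subfamily per kilobase, others known from the hippocampus and those that did not pass the filter. Results of some members are not reported here by name, although counts over the family include them.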

Additional observations from a re-analysis of the deposited data

Results flagged for a closer look

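In 3 of 60 groups of libraries examined for called members, the gap between 1 library and the rest was large for the range of the group (Dixon's criterion at the 95% level), and chance alone gives this in about 1 in 20 groups. Kcnj16 was 133.2 in DG untrained 1, above the other 6 untrained libraries, of which the next was 99.5. Kcnq3 was 1248 in CA1 untrained 3, above the other CA1 libraries, of which the next was 1060. Kcnk9 was 503.9 in CA3 trained 3, below the other CA3 libraries, of which the next was 659.5.

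The difference between trained and untrained libraries was larger in CA1 than in DG for Kcnmb4 (0.662 on the log2 scale, adjusted p = 0.0446 by the limma interaction test). Kcnj15 passed the same threshold (-3.64, adjusted p = 0.0308), but its value rests on 3 libraries listed at 0 and is no measure of size. It passed the filter on low values only through groups that the interaction contrasts, so its p supports no difference in effect.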

How the results depend on the processing

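Alternatives were compared by the number of members called. With a sex-linked score as a covariate 0 members, and 0 of all 14673 genes in limma, were called for training over all subregions, against 18 and 1517, and Kcnh3 reversed to -0.056 (adjusted p = 0.946). With the CA3 pyramidal marker score 1 was called there and 0 in either CA1 comparison, and Kcnab1 (0.034) and Kcnh7 (0.062) reversed. With the CA1 marker score 3 were called between CA1 and DG and 0 between CA1 and CA3. Without CA3 untrained replicate 1 the counts were 10 over all subregions, 0 in CA3 and 2 between CA1 and CA3. With no filter they were 12 over all subregions, 14 in CA1, 2 in DG and 8 for the CA1 and DG interaction, with 10 or more required in every library 1 in DG and 1 for that interaction, and with no robust estimation 0 in CA3, where Kcnmb4 was lost. With the spread taken from all 16 libraries 4 were called in CA3 and 1 in DG. With each animal left out, counts ranged from 4 to 16 over all subregions, 4 to 10 in CA1, 0 to 6 in CA3, 0 to 10 in DG, 1 to 6 between CA1 and DG, 0 to 5 between CA1 and CA3, 0 to 1 between CA3 and DG and 0 to 2 for the CA1 and DG interaction.

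The replicate block gave 11 members and 1160 of all 13848 genes in CA3, against 2 and 118 without it, and 4 members and 500 of 13935 genes in DG, where a number is shared by a trained and an untrained animal only in name: same-numbered libraries had correlations of deviations from -0.171 to 0.102. Over all subregions it did not move the count by more than 1.5 times, and Kcnd3 (0.0550) and Kcnh7 (0.0518) missed the threshold for training. Between subregions and in the interactions the block was the animal label, which paired libraries of one label. No count moved by more than 1.5 times there. Median-of-ratios rescaling shifted the median of all genes by less than 1e-06. The values were thus already close to that scale. This setting, which counts among the 624 comparisons below, could therefore not test the normalization. Of 624 comparisons of a named member with an alternative, 409 kept direction and side of the threshold, 212 kept direction alone and 3 reversed. Without counts, what depth limits could not be measured, which bears on low members such as Kcnk4 and Kcnj15. Certainty was not compared by level.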
